A study of Mus musculus with 48 samples.

Results

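The 10 genes described here are switched on by neuronal activity, and were followed across the day in 4 parts of the mouse dopamine system: the zinc-finger factors Egr1, Egr2, Egr3 and Egr4, the nuclear receptors Nr4a1 and Nr4a3, the factor Npas4, the synaptic genes Arc and Homer1, and the phosphatase gene Dusp1. They were chosen by name, with earlier results of these data known. For each, the array row annotated with that symbol alone was taken, the highest on average where a gene has several. All 10 had exactly 1 such row and passed the filter on low levels, out of 22180 genes with a row and 17274 genes tested. Male C57BL/6 mice had been kept in cycles of 12 h of light and 12 h of darkness, and carried no transgene or treatment in the labels. The 4 tissues were SN/VTA, the midbrain dopamine region of substantia nigra and ventral tegmental area, its targets in prefrontal cortex (PFC) and striatum (STR), and the habenula (HAB), which inhibits it. Mice were killed in the light at 3, 7 and 11 h after lights on (Zeitgeber time, ZT3, ZT7 and ZT11) or in darkness at ZT15, ZT19 and ZT23. Each of the 24 groups of tissue and time had 2 arrays, where replicate 1 stands for the first of 2 successive cycles of 24 h and replicate 2 for the next, giving 12 arrays per tissue and 48 in all. Each array held RNA pooled from 3 mice killed at the same time of day, so p-values measure the spread between pools and not between animals. The labels used here state no age.

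Values are deposited log2 levels, from 1.09 to 13.65, and a difference of 1 is a doubling of the signal. Across genes, the r of the 2 replicates of a group was at least 0.982 and at most 0.995. This r spans all genes tested and does not give the replicate spread of single genes, which is given below. Precision is limited by that spread and by how many arrays there are. The tissue labels were borne out by their defining markers. The level of a marker list is the log2 of the mean of its genes on the linear scale, in each array. For 7 dopamine neuron genes it was between 10.13 and 10.57 in SN/VTA and at most 7.55 elsewhere. For 5 medium spiny neuron genes it was at least 11.18 in STR and at most 8.96 elsewhere. For 5 genes of cortical projection neurons the lowest level was 10.08 in PFC and the highest in any other tissue 9.49, in HAB. Habenula genes as a list reached at least 10.15 in HAB and at most 8.96 in SN/VTA, the next tissue. Among them Calb2 and Chrnb3 averaged slightly higher in SN/VTA (10.69 and 8.33) than in HAB (10.53 and 8.31). In HAB 4 hippocampal genes were also high (8.82 to 9.42, against at most 8.13 elsewhere). There choroid plexus genes varied between 8.66 and 11.60 and thalamic genes between 8.83 and 10.53. In whole tissue, fewer cells of a type and less RNA per cell cannot be told apart.

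Immediate early genes are transcribed as soon as a neuron is excited, with no need for new protein. Calcium entry and kinase cascades activate factors that are already present, above all CREB, which binds the cyclic AMP response element (CRE), and SRF, which binds the CArG box of serum response elements. Their products include transcription factors that start a later wave of genes, proteins that act at the synapse, and phosphatases that shut the kinases off. In cortex and striatum they are widely used as markers of recent neuronal activity, and mice are mainly active in the dark.

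The promoter sequences are shown because CREB and SRF sites are the textbook entry point for such genes. RefSeq windows on build GRCm38.p6, from 250 bases before to 50 bases after a transcription start, matched 7 of the 10 genes (Egr2, Egr4, Nr4a1, Nr4a3, Npas4, Homer1 and Dusp1), while Egr1, Egr3 and Arc are named only. Both strands were searched for the full CRE (TGACGTCA), the CRE core (TGACG, which every full CRE holds on each strand), the Egr site (GCGNGGGCG), the E-box (CACGTG) and the CArG box. Capitals mark every match in the windows below, which run 5′ to 3′ along the strand of the gene. Where a gene had several windows, the first of those with most marked bases is printed.
Egr2, chr10:67537619-67537918, plus strand: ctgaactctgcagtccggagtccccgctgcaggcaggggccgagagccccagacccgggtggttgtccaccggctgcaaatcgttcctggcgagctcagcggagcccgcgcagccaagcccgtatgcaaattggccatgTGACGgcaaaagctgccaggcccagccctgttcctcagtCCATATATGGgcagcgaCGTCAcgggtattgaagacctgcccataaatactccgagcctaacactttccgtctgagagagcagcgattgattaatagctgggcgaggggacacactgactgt
Nr4a1, chr15:101266596-101266895, plus strand: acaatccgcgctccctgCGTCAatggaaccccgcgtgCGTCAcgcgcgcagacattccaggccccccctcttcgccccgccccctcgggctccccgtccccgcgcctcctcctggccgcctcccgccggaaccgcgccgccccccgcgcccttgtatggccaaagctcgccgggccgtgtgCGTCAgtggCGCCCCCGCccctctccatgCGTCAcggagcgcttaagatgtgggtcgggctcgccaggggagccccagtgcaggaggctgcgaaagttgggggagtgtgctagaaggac
Nr4a3, chr4:48045055-48045354, plus strand: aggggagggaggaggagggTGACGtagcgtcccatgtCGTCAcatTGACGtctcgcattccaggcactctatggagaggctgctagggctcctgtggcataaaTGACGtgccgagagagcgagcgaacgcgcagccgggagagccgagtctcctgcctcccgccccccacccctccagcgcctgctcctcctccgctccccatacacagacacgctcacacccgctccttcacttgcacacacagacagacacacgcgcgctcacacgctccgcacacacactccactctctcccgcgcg
Npas4, chr19:4989922-4990221, minus strand: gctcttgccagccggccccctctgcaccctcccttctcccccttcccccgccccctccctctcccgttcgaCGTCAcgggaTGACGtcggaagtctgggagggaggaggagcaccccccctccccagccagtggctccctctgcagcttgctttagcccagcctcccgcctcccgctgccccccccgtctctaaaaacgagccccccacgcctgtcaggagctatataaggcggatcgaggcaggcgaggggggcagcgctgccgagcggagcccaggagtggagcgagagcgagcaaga
Homer1, chr13:93303507-93303806, plus strand: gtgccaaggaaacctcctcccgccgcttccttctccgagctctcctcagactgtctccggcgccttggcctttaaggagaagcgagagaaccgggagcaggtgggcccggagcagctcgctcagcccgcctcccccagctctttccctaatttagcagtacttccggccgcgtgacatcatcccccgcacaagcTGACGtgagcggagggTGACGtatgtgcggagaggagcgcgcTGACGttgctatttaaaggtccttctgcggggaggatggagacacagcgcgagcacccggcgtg
Dusp1, chr17:26508423-26508722, minus strand: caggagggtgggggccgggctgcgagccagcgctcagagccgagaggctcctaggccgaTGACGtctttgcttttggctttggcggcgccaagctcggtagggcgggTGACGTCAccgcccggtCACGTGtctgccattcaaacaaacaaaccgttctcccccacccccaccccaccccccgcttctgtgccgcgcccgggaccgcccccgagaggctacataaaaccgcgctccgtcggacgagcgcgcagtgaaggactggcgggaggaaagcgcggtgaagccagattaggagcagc
The CRE core was in at least 1 window of all 7 genes, and all 7 had a window with 2 or more, whereas 23% of the 27025 genes in the RefSeq table held the core and 5.7% had a window with 2 or more. Nr4a1 and Nr4a3 had 4 cores each, and Homer1 and Dusp1 had 3 each, counting the full CRE of Dusp1 on both strands. Only Dusp1 held a full CRE (2.03% of all genes), only Egr2 a CArG box (1.81%) and only Nr4a1 an Egr site (6.27%), among the 7 genes searched. Dusp1 and, in a window not printed, Egr2 held an E-box (8.09%). These matches describe the letters in the windows and do not show that a factor binds there.

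The first comparison asked how strongly each tissue expresses these genes. SN/VTA had the lowest mean for 9 of 10 genes, and the highest mean was in PFC for 6, in STR for 3 and in HAB for 1. Relative to PFC, 10 of 10 genes were lower in SN/VTA at an adjusted p under 0.05 in limma, 7 of them by at least 1 on the log2 scale. Over all genes tested, 75.1% passed this test, 31.5% as lower in SN/VTA, and 3.15% were lower by at least 1. Against STR, 9 genes were lower in SN/VTA and 1, Dusp1, was higher (75.9% of all genes passed, 30.8% as lower). Against HAB, 7 were lower and Dusp1 higher, with Egr1 and Egr2 not passing the test (67.7% of all genes passed, 25.4% as lower). The median difference of the 10 genes was -1.47 for SN/VTA minus PFC, -1.21 for SN/VTA minus STR and -0.54 for SN/VTA minus HAB, beside medians over all genes of 0.05, 0.06 and 0.07; these comparisons share the SN/VTA arrays. Centring each array on its median moved the medians over all genes to 0.17, 0.25 and 0.21, and no call among these 3 comparisons changed for the 10 genes. Between PFC and STR, 7 genes were higher and 2 lower in PFC (73.9% of all genes passed, 33.3% as higher). PFC exceeded HAB for 8 genes and fell below it for Nr4a3 (72.4% passed, 33.6% as higher), and STR exceeded HAB for 7 and fell below it for Nr4a3 and Dusp1 (70.4% passed, 32.8% as higher).

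**Figure D1:**
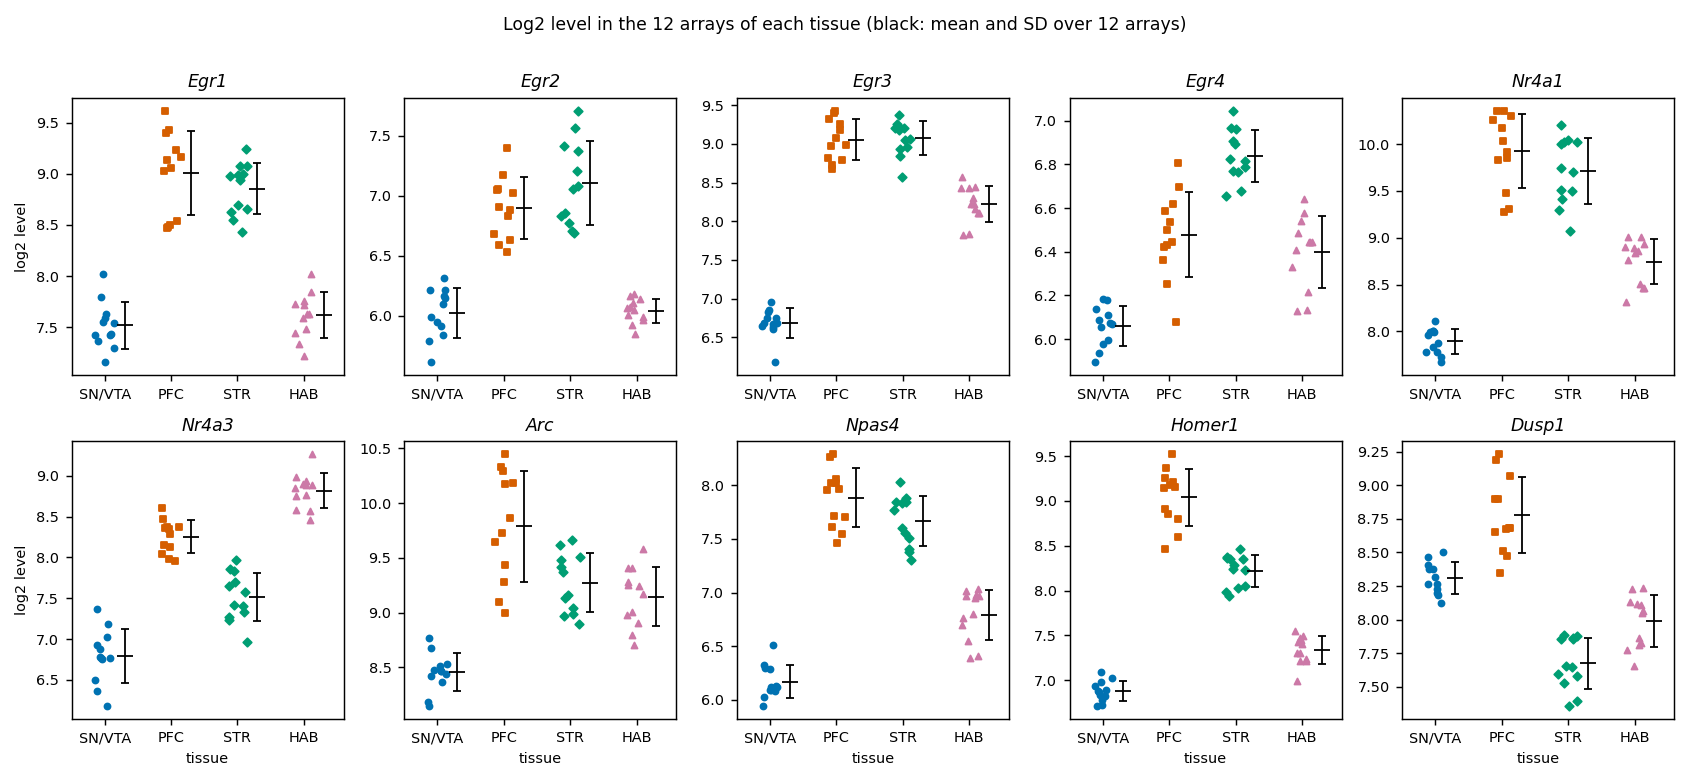
Log2 level of each gene (vertical axis) in the 12 arrays of SN/VTA, PFC, STR and HAB (points), with the mean and SD over 12 arrays in black. SN/VTA arrays lie lowest for most genes, Nr4a3 is highest in HAB, and Dusp1 is the gene whose STR arrays lie lowest.

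Egr3, a zinc-finger factor induced later and for longer than Egr1, had the widest gap between tissues. Its level averaged 6.69 ± 0.19 in SN/VTA, 9.05 ± 0.27 in PFC, 9.07 ± 0.22 in STR and 8.22 ± 0.23 in HAB (SD, n = 12 arrays each). PFC and STR did not differ beyond their spread (log2 difference -0.02 ± 0.07 SE, adjusted p = 0.828 in limma), and each stood more than 5-fold above SN/VTA: the differences of SN/VTA minus PFC and minus STR were -2.37 ± 0.07 and -2.39 ± 0.07, or 5.16-fold and 5.22-fold. All 12 SN/VTA arrays lay below every array of the other tissues.

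Egr1, the member most used as an activity marker, ran from 7.16 over a median of 7.49 to 8.03 in SN/VTA, from 8.47 over 9.09 to 9.62 in PFC, from 8.43 over 8.96 to 9.24 in STR and from 7.22 over 7.63 to 8.03 in HAB. Neither SN/VTA nor HAB reached the lowest PFC or STR array, and the means of SN/VTA and HAB did not differ beyond their spread (adjusted p = 0.163 in limma). PFC exceeded STR by only 0.15 ± 0.06 SE (adjusted p = 0.0301), a call lost with quantile normalization (adjusted p = 0.337), with collection time as a block (0.138) and without any of 8 single arrays (0.0531 to 0.0931).

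Egr2, known for myelination and induced in neurons as well, averaged 6.02 ± 0.21 in SN/VTA, 6.90 ± 0.26 in PFC, 7.11 ± 0.35 in STR and 6.04 ± 0.10 in HAB. Egr4, a further zinc-finger factor of the family, averaged 6.06 ± 0.09 in SN/VTA, 6.48 ± 0.20 in PFC, 6.84 ± 0.12 in STR and 6.40 ± 0.17 in HAB. Egr2 and Egr4 were thus the 2 genes higher in STR than in PFC, by differences of PFC minus STR of -0.21 ± 0.07 (adjusted p = 0.00502) and -0.36 ± 0.06 (adjusted p = 3.62e-06, limma). After centring each array on its median the Egr2 call was lost (adjusted p = 0.0521). The levels of Egr2 in SN/VTA and HAB and of Egr4 in SN/VTA lay near the array medians, 5.84 to 6.07. The dopamine neuron gene Slc6a3 read 6.06 in PFC and 6.00 in HAB. These low levels may thus hold much background, which was not tested.

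The 2 nuclear receptors, which bind DNA without a known activating hormone, had different tissue orders. Nr4a1 averaged 7.89 ± 0.14 in SN/VTA, 9.93 ± 0.40 in PFC, 9.71 ± 0.35 in STR and 8.75 ± 0.24 in HAB. Nr4a3 averaged 6.79 ± 0.33 in SN/VTA, 8.26 ± 0.20 in PFC, 7.52 ± 0.30 in STR and 8.82 ± 0.22 in HAB, so that it was the single member highest in HAB. It was 4.08-fold lower in SN/VTA than in HAB (SN/VTA minus HAB -2.03 ± 0.11 SE), and its differences of PFC minus HAB (-0.56 ± 0.11, adjusted p = 2.21e-05) and STR minus HAB (-1.30 ± 0.11, adjusted p = 6.79e-12 in limma) were both negative. The HAB arrays also carried the hippocampal marker levels given above, and their part in the Nr4a3 level was not tested. Across the 12 HAB arrays Nr4a3 correlated with the hippocampal level by r = 0.13 and with the cortical neuron level by r = 0.69. With the habenula neuron level its r was -0.22. The cortical list includes Neurod6, a factor of hippocampal pyramidal neurons too, so these lists do not fully separate the 2 tissues.

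Of the synaptic genes, Homer1 showed the steeper order. It encodes a scaffold at glutamatergic synapses, with a short form that neuronal activity induces; the row measured is annotated to the gene and not to a form. Its level was 6.88 ± 0.12 in SN/VTA, 9.04 ± 0.32 in PFC, 8.22 ± 0.18 in STR and 7.34 ± 0.16 in HAB, and in the order of levels, PFC, STR, HAB and SN/VTA, every neighbouring pair differed (adjusted p at most 2.82e-08 in limma). Arc, whose protein helps remove AMPA receptors from synapses, averaged 8.46 ± 0.17 in SN/VTA, 9.79 ± 0.51 in PFC, 9.27 ± 0.27 in STR and 9.15 ± 0.27 in HAB, with STR and HAB not apart beyond their spread (STR minus HAB 0.13 ± 0.09, adjusted p = 0.186). Npas4, a factor found mainly in neurons that answers to calcium, averaged 6.17 ± 0.16 in SN/VTA, 7.89 ± 0.27 in PFC, 7.67 ± 0.24 in STR and 6.79 ± 0.24 in HAB. Its SN/VTA level too was little above the array medians.

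Dusp1, a phosphatase that inactivates MAP kinases and also answers to glucocorticoids and stress, averaged 8.31 ± 0.12 in SN/VTA, 8.78 ± 0.28 in PFC, 7.68 ± 0.19 in STR and 7.99 ± 0.19 in HAB. SN/VTA was higher than STR by 0.63 ± 0.08 SE (adjusted p = 2.74e-08) and higher than HAB by 0.32 ± 0.08 (adjusted p = 7.44e-04 in limma). Of the 10 genes, only Dusp1 had PFC arrays that all lay above all STR arrays, as 29.6% of all genes had the arrays of these tissues apart in either direction. Arrays did not overlap for 8 of 10 genes between SN/VTA and PFC (40.5% of all genes), 9 between SN/VTA and STR (33.8%), 3 between SN/VTA and HAB (27.3%), 7 between PFC and HAB (30.3%) and 7 between STR and HAB (17.5%).

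The next comparison asked whether the genes changed over the day. In PFC a cosine of 24 h was called for 2 of 10 genes in limma, Egr1 and Egr3, where 0.179% of all genes were called. Egr1 in PFC was 8.48 and 8.54 at ZT3, 8.47 and 8.50 at ZT7, 9.03 and 9.43 at ZT11, 9.62 and 9.40 at ZT15, 9.24 and 9.13 at ZT19 and 9.06 and 9.17 at ZT23, in replicates 1 and 2. Its 4 lowest arrays were those of ZT3 and ZT7, and both ZT11 arrays, taken before lights off, lay above them. The fitted amplitude, from the mean to the peak, was 0.50 ± 0.07 SE, a 1.99-fold change from trough to peak, with the peak at ZT16.32 (adjusted p = 0.0278). With the replicate number as a block the adjusted p was 0.0508. Egr3 in PFC was 8.98 and 8.97 at ZT3, 8.68 and 8.82 at ZT7, 8.72 and 8.80 at ZT11, 9.26 and 9.33 at ZT15, 9.40 and 9.43 at ZT19 and 9.18 and 9.07 at ZT23. Unlike Egr1 it was still low at ZT11, and all 6 dark arrays lay above all 6 light arrays. Its amplitude was 0.34 ± 0.05, or 1.59-fold from trough to peak, with the peak at ZT19.17 (adjusted p = 0.0177). Each call rests on 12 arrays: the Egr1 call was lost without any 1 of the arrays of ZT3, ZT7 or ZT15 (6 of 12 cases, adjusted p up to 0.105), and the Egr3 call without either ZT19 array, the first ZT7 array or the second ZT11 array (4 of 12 cases, up to 0.0806).

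**Figure D2:**
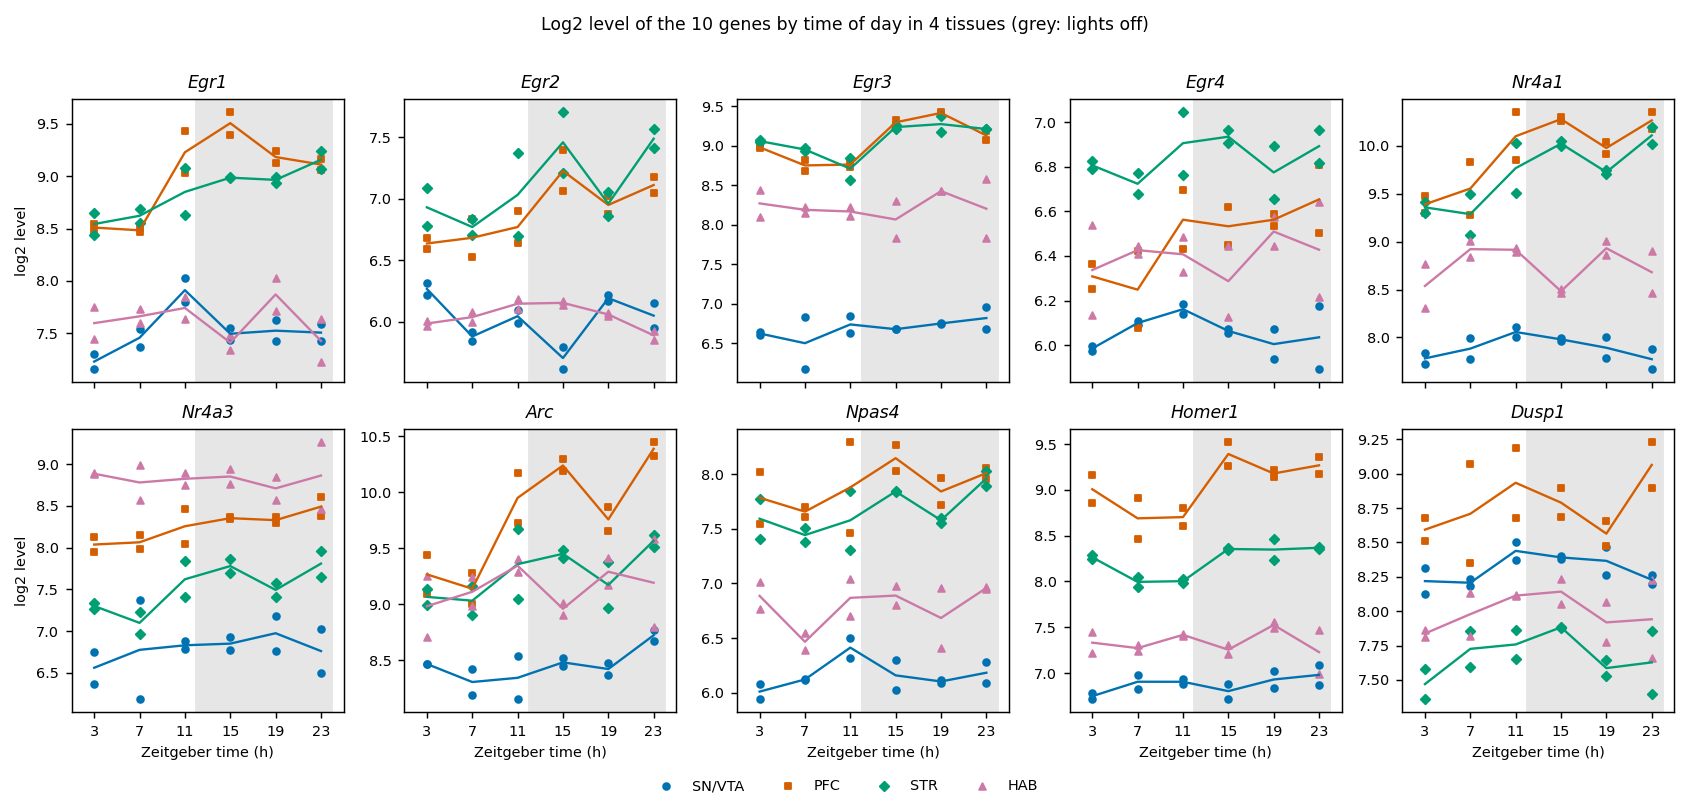
Log2 level (vertical axis) against Zeitgeber time in hours, with 2 arrays per tissue and time as points, their means joined by lines, and the dark in grey. In PFC and STR most genes lie higher in the dark than at ZT3 and ZT7, with a dip at ZT19 for Arc, Nr4a1 and Egr2, whereas the points of SN/VTA and HAB show no such order.

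The other genes had fitted peaks in the dark in PFC as well but no adjusted call. Arc had the widest range of the 10 genes in any tissue, 1.45 on the log2 scale. It was 9.10 and 9.44 at ZT3, 8.999 and 9.28 at ZT7, 9.73 and 10.17 at ZT11, 10.19 and 10.29 at ZT15, 9.87 and 9.65 at ZT19 and 10.33 and 10.45 at ZT23. Its amplitude was 0.47 ± 0.14 with the peak at ZT17.72 (adjusted p = 0.311), and it was lower at ZT19 than at ZT15 and ZT23. Homer1 had an amplitude of 0.33 ± 0.08 peaking at ZT19.61 (adjusted p = 0.208), and Nr4a1 one of 0.38 ± 0.11 peaking at ZT16.77 (adjusted p = 0.284). Without adjustment 7 of 10 genes had p under 0.05 in PFC (11.6% of all genes), and the fitted peaks of those 7 ran from ZT16.32 to ZT19.61. Dusp1 had the lowest amplitude of the 10 in PFC, 0.02 ± 0.11, which leaves its peak time undetermined.

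In STR no gene was called by the cosine in limma (0.0174% of all genes were), while 5 had unadjusted p under 0.05 (8.49% of all genes). These were Egr1, Egr3, Nr4a1, Nr4a3 and Homer1, with amplitudes from 0.21 to 0.33 and peaks from ZT17.73 to ZT20.54. Homer1 in STR was 8.29 and 8.24 at ZT3, 8.05 and 7.94 at ZT7, 8.03 and 7.98 at ZT11, 8.36 and 8.35 at ZT15, 8.23 and 8.46 at ZT19 and 8.36 and 8.38 at ZT23, so its 4 lowest arrays were those of ZT7 and ZT11. In SN/VTA there were 0 calls and 2 genes with unadjusted p under 0.05, Nr4a1 and Dusp1 (0.162% and 9.87% of all genes; limma), and in HAB 0 calls and 1 such gene, Egr2 (0.0174% and 6.3%). The fitted amplitudes in HAB were at most 0.14, and the median of the 10 was 0.06 beside 0.07 over all genes; in PFC it was 0.29 beside 0.08, and in STR 0.22 beside 0.08.

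Fitted over all 48 arrays with 1 curve for the 4 tissues, the rhythm was called for 3 genes in limma, where 5.55% of all genes were called. The labels do not say whether the 4 tissues of a collection time came from the same mice. This fit took the arrays as independent, and collection time was not tried as a block for it. That limit holds for every shared rhythm given here. Egr1 had an amplitude of 0.21 ± 0.05 SE peaking at ZT16.04 (adjusted p = 0.0127), Egr3 one of 0.18 ± 0.04 peaking at ZT19.97 (adjusted p = 0.00354) and Homer1 one of 0.15 ± 0.04 peaking at ZT19.68 (adjusted p = 0.0174). Nr4a1 came next with 0.19 ± 0.05 at ZT16.29 and an adjusted p of 0.0575, or 0.0483 with the replicate block. Of these 4 genes, Egr1 and Nr4a1 peaked earlier in the dark than Egr3 and Homer1, with no test made of the difference in peak time. The fitted peaks of Egr4, Nr4a3, Npas4, Arc and Egr2, none of them called, lay between, from ZT16.75 to ZT18.58. That of Dusp1, also not called, was at ZT13.50. A test of whether the rhythm differs between the tissues passed for 0 of 10 genes in limma (0.0289% of all genes), with 3 at an unadjusted p under 0.05 (6.64% of all genes): Egr1 (adjusted p = 0.39), Homer1 and Egr2. An amplitude called in PFC and not elsewhere is therefore not shown to differ from that in the other tissues.

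The third comparison set the 6 dark arrays of a tissue against its 6 light arrays. In PFC 6 of 10 genes were higher in the dark in limma, where 0.376% of all genes differed and 0.208% were higher. The median difference over the 10 genes was 0.42 in PFC and 0.30 in STR, against 0.01 in SN/VTA and 0.00 in HAB, and the medians over all genes were within 0.01 of 0. Arc in PFC ran from 9.65 over a median of 10.24 to 10.45 in the dark and from 8.999 over 9.36 to 10.17 in the light, and was higher by 0.68 ± 0.12 SE, or 1.60-fold (adjusted p = 0.00808). The overlap was between ZT11 in the light and ZT19, which held the 2 lowest dark arrays. Egr1 in PFC ran from 9.06 over 9.20 to 9.62 in the dark and from 8.47 over 8.52 to 9.43 in the light, a difference of 0.53 ± 0.09 (adjusted p = 0.00596). Homer1 ran from 9.14 over 9.24 to 9.52 in the dark and from 8.46 over 8.83 to 9.16 in the light, a difference of 0.48 ± 0.08 (adjusted p = 0.00596). Only the first replicate at ZT3, in the light, overlapped the dark arrays.

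Nr4a1 in PFC was higher in the dark by 0.49 ± 0.11 (adjusted p = 0.0272), Egr3 by 0.45 ± 0.10 (adjusted p = 0.0396) and Egr2 by 0.40 ± 0.09 (adjusted p = 0.0455, all limma). The calls of Egr2 and Egr3 lay near the threshold and were lost with other scalings (adjusted p from 0.0504 to 0.0571), and Egr3 lost its call when any 1 of the 12 PFC arrays was left out. Egr2 lost it in 9 of 12 such cases, Nr4a1 in 8 and Arc in 1, without the first ZT11 array (adjusted p = 0.0531), whereas Egr1 and Homer1 passed in all 12. With the spread estimated from the PFC arrays alone, Egr3 was the single call left (adjusted p = 0.0255), with an adjusted p of 0.0652 for Egr1 and Arc. The 4 genes not called had differences of 0.27 (Nr4a3), 0.23 (Npas4), 0.21 (Egr4) and 0.06 (Dusp1). Of the 10 genes, Egr3 alone had all dark arrays above all light arrays, in PFC and again in STR, where 0.399% and 0.249% of all genes did.

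**Figure D3:**
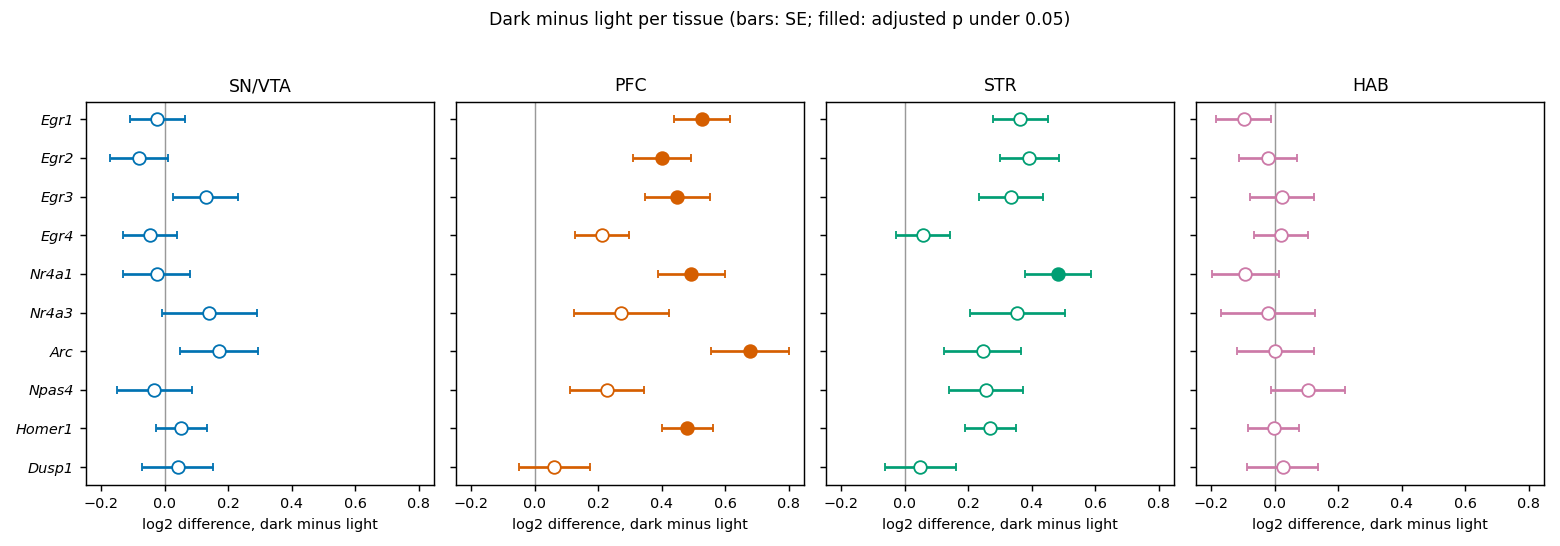
Log2 difference of dark minus light (horizontal axis) with its SE for the 10 genes in each tissue, filled where the adjusted p is under 0.05. The differences lie right of 0 for every gene in PFC and STR, and on both sides of 0 in SN/VTA and HAB.

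In STR only Nr4a1 passed, where 0.347% of all genes differed and 0.168% were higher. It ran from 9.70 over a median of 10.01 to 10.20 in the dark and from 9.07 over 9.46 to 10.03 in the light, a difference of 0.48 ± 0.11 SE (adjusted p = 0.0354 in limma). The next genes missed the threshold narrowly: Egr2 with 0.39 ± 0.09 (adjusted p = 0.0505) and Egr1 with 0.36 ± 0.09 (adjusted p = 0.0548). With the replicate block both passed (adjusted p = 0.042 and 0.0457), which gave 3 genes, and with the STR arrays alone none did. The Nr4a1 call was lost in 8 of 12 cases with 1 STR array left out (adjusted p up to 0.139, without the first ZT11 array). In SN/VTA and HAB 0 genes passed in limma (0.0521% and 0.122% of all genes), and 0 of 10 had an unadjusted p under 0.05 in either. There the differences ran from -0.08 to 0.17 in SN/VTA and from -0.10 to 0.10 in HAB. A test of whether dark minus light differs between the 4 tissues, chosen after the values were seen, was passed by 0 genes after adjustment in limma; 6 of the 10 had an unadjusted p under 0.05 (4.9% of all genes), with the lowest for Egr1 (adjusted p = 0.255).

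In the same arrays the level of 5 oligodendrocyte genes was 9.06 on average in the dark and 9.21 in the light in PFC, and 9.57 in the dark and 9.63 in the light in STR. Across the 12 arrays the mean of the 10 genes correlated with it by r = -0.66 in PFC and -0.59 in STR. Its range was 8.90 to 9.23 in the dark and 9.03 to 9.41 in the light in PFC. The level of 5 medium spiny neuron genes in PFC was 8.43 on average in the dark (8.17 to 8.77) and 8.60 in the light (8.43 to 8.79), with r = -0.20 against the mean of the 10 genes. That of 7 dopamine neuron genes in PFC was 6.43 in the dark and 6.36 in the light, with r = 0.64. The part of these differences in the result was not tested. In HAB the mean of the 10 genes correlated by r = 0.74 with the astrocyte level, 0.60 with the cortical neuron level, 0.49 with the hippocampal level -0.53 with the choroid plexus level and -0.50 with the thalamic level, and Egr3 alone by 0.83 with the hippocampal level. In HAB the hippocampal level was 8.82 to 9.38 in the dark and 9.01 to 9.42 in the light.

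The values at 3 steps within the day were examined after the values had been seen. From the end of the dark to the start of the light, the difference of ZT3 minus ZT23 was negative for 10 of 10 genes in both PFC and STR, with medians of -0.46 and -0.43 beside 0.00 and 0.02 over all genes. Arc in PFC passed, with 9.10 and 9.44 at ZT3 and 10.33 and 10.45 at ZT23 (-1.12 ± 0.21 SE, adjusted p = 0.0377 in limma; 0.0521% of all genes passed, and 0% in STR). Leaving out any of these 4 arrays ended the call (adjusted p from 0.0514 to 0.299). Nr4a1 in PFC was next at -0.88 ± 0.18 (adjusted p = 0.0613), and passed with the replicate block (adjusted p = 0.0231). At lights off, the difference of ZT15 minus ZT11 was positive for 8 genes in PFC and 10 in STR, with 0 calls for the 10 genes in limma in either (0% and 0.0232% of all genes) and 3 with an unadjusted p under 0.05 in each (5.38% and 9.6%). Homer1 had the largest such step in PFC (0.69 ± 0.14, adjusted p = 0.177).

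The mid-dark value at ZT19 lay below the mean of ZT15 and ZT23 for 9 of 10 genes in PFC and 9 of 10 in STR, Egr3 being the exception in both (0.20 in PFC and 0.05 in STR). Arc in PFC (-0.56 ± 0.18, unadjusted p = 0.00499, adjusted p = 0.609) and Egr2 in STR (-0.51 ± 0.14, unadjusted p = 8.65e-04, adjusted p = 0.23) had the largest dips, and 0 of 10 passed in limma in either tissue (0% and 0.0232% of all genes), with 2 at an unadjusted p under 0.05 in each (5.92% and 7.38%). In HAB the difference at ZT19 was positive for 7 of 10 genes and again 0 passed in limma (0.342% of all genes), with 3 at an unadjusted p under 0.05 (9.73%).

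The 2 cycles were compared next. No gene differed between the second and the first cycle in any tissue in limma; 2 of 10 had an unadjusted p under 0.05 in PFC, Egr2 and Nr4a1 (4.11% of all genes), and 0 in the other tissues. After adjustment 0% of all genes passed in SN/VTA, PFC and STR, and 0.00579% in HAB. Single times did differ between the replicates. At ZT11 all 10 genes were higher in replicate 2 in PFC, by a median of 0.41 and up to 0.83 for Npas4, and 8 of 10 in STR, by a median of 0.44. In PFC this second array at ZT11 had 8 of 10 genes above the tissue mean, and the first had 1 of 10. Other immediate early genes were higher in that second PFC array for 14 of 27, with a median difference of 0.00, and 50.5% of all genes were. The median replicate SD of the 10 genes was 0.12 in SN/VTA, 0.18 in PFC, 0.18 in STR and 0.21 in HAB, beside 0.10, 0.13, 0.13 and 0.13 over all genes. The widest gap was that of Nr4a3 in SN/VTA at ZT7, with 7.37 in replicate 1 and 6.18 in replicate 2. In the same arrays the cortical neuron level was 7.73 and 6.98. Across the 12 SN/VTA arrays the mean of the 10 genes correlated with that level by r = 0.51, and its part in the gap was not tested. In HAB the genes were higher in replicate 2 for 10 of 10 at ZT3 (median 0.28) and 8 of 10 at ZT23 (median 0.43). The choroid plexus level in HAB was 11.42 in replicate 1 and 8.89 in replicate 2 at ZT3, and 11.58 and 9.20 at ZT23. It was lower in replicate 2 at every time but ZT15 (11.38 and 11.57). The part of this difference in tissue content was not tested. Without ZT11, an alternative chosen after the values were seen, dark minus light passed for 3 genes in STR (Nr4a1, Egr1 and Egr2), and Egr3 was lost in PFC (adjusted p = 0.133).

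**Figure D4:**
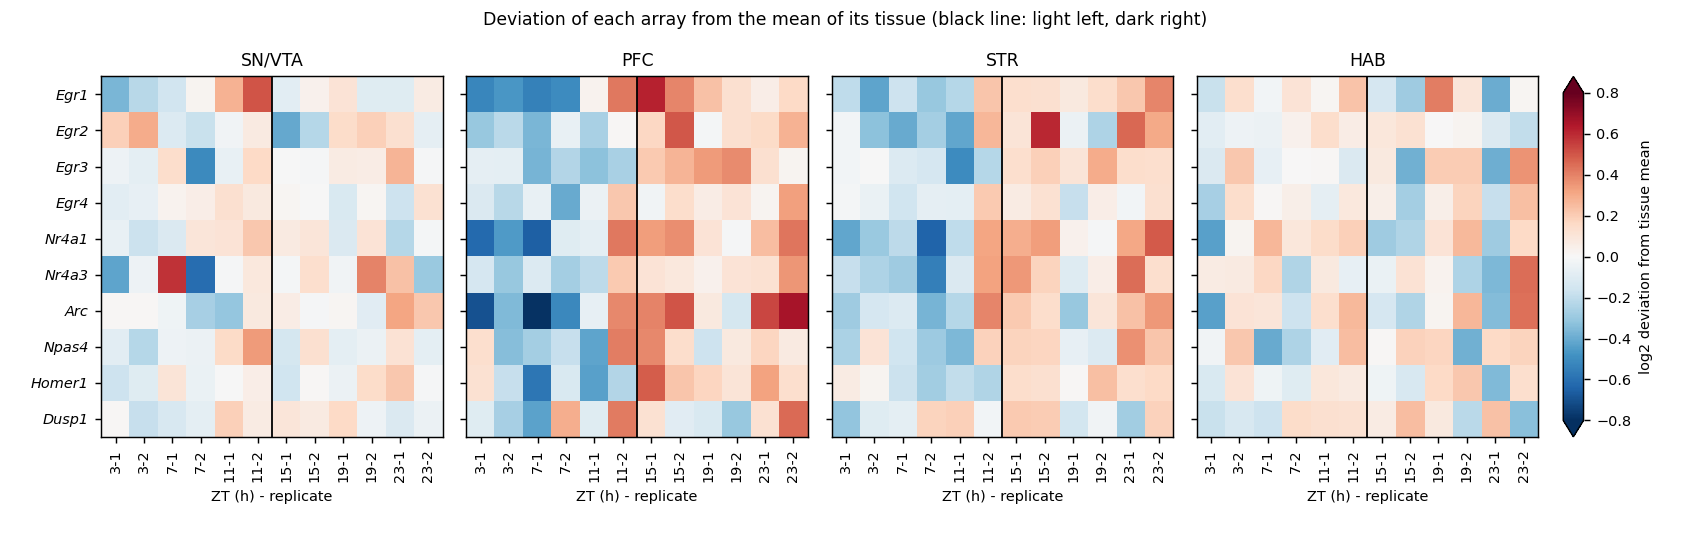
Deviation of each of the 48 arrays (columns, labelled by ZT and replicate) from the mean of its tissue for the 10 genes (rows), in log2 units, with the light left and the dark right of the black line. In PFC and STR the columns of ZT3 and ZT7 are mostly blue (low) and those of ZT15 and ZT23 mostly red (high), and the replicates of ZT11 differ.

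Pairs of the 10 genes were mostly positively correlated in PFC and STR. Over the 45 pairs, the median Pearson correlation across the 12 arrays of a tissue was 0.15 in SN/VTA, 0.58 in PFC, 0.53 in STR and 0.16 in HAB, and 17, 1, 3 and 18 pairs were negative. These are descriptions over arrays that share a time of day in pairs and, within an array, its RNA pool. Nr4a1 and Arc had r = 0.94 in PFC, 0.88 in STR and 0.85 in HAB but -0.48 in SN/VTA. Egr3 and Homer1 had r = 0.53 in SN/VTA, 0.83 in PFC, 0.85 in STR and 0.83 in HAB, positive in all 4 tissues and lowest in SN/VTA. In HAB Egr3 and Homer1 also correlated with the hippocampal level (r = 0.83 and 0.66) and with the thalamic level (-0.61 and -0.65). The part of tissue content in the HAB value was not tested. Egr1 and Nr4a1 had r = 0.62 in SN/VTA, 0.88 in PFC, 0.91 in STR and 0.71 in HAB. Dusp1 was the least attached over all 48 tissue-centred arrays, where its best match was Nr4a1 at r = 0.34. Within single tissues its r ran from -0.68 with Egr3 in HAB to 0.68 with Nr4a1 in PFC. Among genes outside the 10, P4ha1, a subunit of the collagen prolyl hydroxylase, followed their mean most closely (r = 0.71 over 48 tissue-centred arrays, 0.93 in both PFC and STR, 0.32 in SN/VTA and 0.39 in HAB). Next came Noxred1 (r = 0.70), the MAP kinase phosphatase Dusp6 (0.66), Fos (0.65) and the Ras pathway inhibitor Spred1 (0.63), then Fpgt, Sdc4 and Tmem109 (0.62 each) and Ankrd11 and Ints8 (0.61 each).

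The single gene outside the 10 nearest to each member was Sdc4, a cell-surface proteoglycan gene, for Egr1 (r = 0.65) and Nr4a1 (0.64), the actin-oxidising enzyme gene Mical2 for Egr3 (0.78) and Homer1 (0.69), and P4ha1 for Arc (0.68), over the same 48 arrays. For Egr2 it was Atp6v0a2 (0.62), for Egr4 Rnf225 (0.63), for Npas4 Cog6 (0.64) and for Dusp1 St3gal3 (0.64). Nr4a3 was nearest to Neurod6 (0.65), a factor of cortical and hippocampal pyramidal neurons and thus one of the cortical markers used here.

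**Figure D5:**
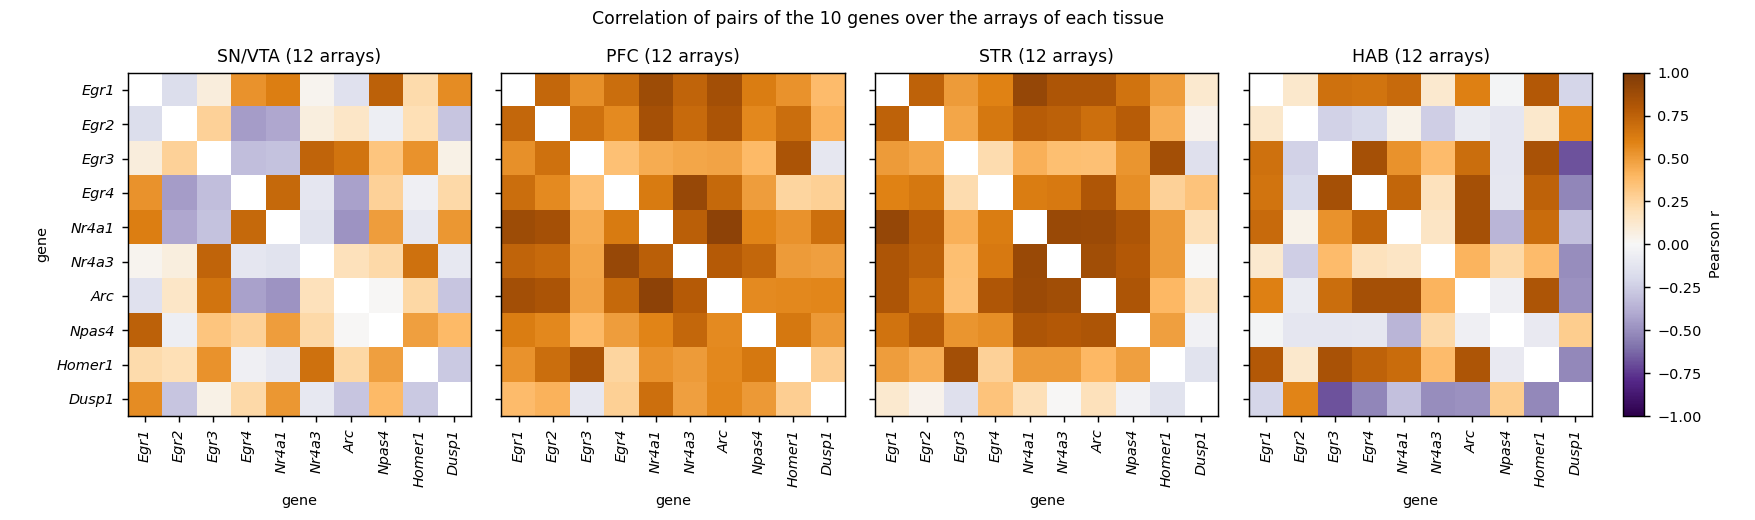
Pearson correlation of each pair of the 10 genes across the 12 arrays of each tissue, from -1 (purple) to 1 (orange), with the diagonal left blank. PFC and STR are orange for most pairs (medians 0.58 and 0.53), whereas SN/VTA and HAB mix both colours (medians 0.15 and 0.16).

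The remaining genes of the pathway were read by lists. Of 27 other immediate early genes tested, 4 were called for the shared rhythm in limma (5.55% of all genes): Per1, which is also a clock gene, with an amplitude of 0.29 ± 0.03 SE peaking at ZT12.35 (adjusted p = 1.55e-08), Fosl2 with 0.17 ± 0.03 at ZT20.45 (adjusted p = 0.00273), Trib1 and Csrnp1. Fos missed it (0.16 ± 0.05 at ZT17.10, adjusted p = 0.0563). The median amplitude of the 27 was 0.07, beside 0.14 for the 10 genes and 0.04 for all genes. In the dark, 2 of the 27 were higher in PFC (0.208% of all genes): Fos averaged 7.39 ± 0.24 in the dark and 6.99 ± 0.33 in the light (SD, n = 6 each, adjusted p = 0.0251 in limma), and Ier5 averaged 7.84 ± 0.16 in the dark and 7.48 ± 0.21 in the light (adjusted p = 0.036). In STR 1 was (0.168% of all genes), Fosl2, with 8.03 ± 0.10 in the dark and 7.56 ± 0.15 in the light (adjusted p = 0.0154). Nr4a2, the third Nr4a receptor and not among the 10, had an amplitude of 0.11 ± 0.05 (adjusted p = 0.447). Ier5 and Nr4a2 were picked after their values were seen, as was Pcsk1 among the later genes.

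Of the genes of the later wave, 9 of 24 were called for the shared rhythm, of which 7 peaked in the dark (2.73% of all genes were called with such a peak). The kinase inhibitor Spred1 had an amplitude of 0.15 ± 0.02 at ZT19.44 (adjusted p = 2.98e-06), the secreted pentraxin Nptx2 0.14 ± 0.03 at ZT22.24 (adjusted p = 0.00714) and the neuropeptide precursor Vgf 0.13 ± 0.03 at ZT22.47 (adjusted p = 0.00521). Nfil3 and Bhlhe40, which also act in the circadian clock, and Tiparp were called too. Dark minus light passed in PFC for 2 of the 24 (0.376% of all genes): Spred1 averaged 10.06 ± 0.07 in the dark and 9.76 ± 0.07 in the light (adjusted p = 0.0125), and Pcsk1, a prohormone convertase, 8.86 ± 0.10 in the dark and 8.61 ± 0.09 in the light (SD, n = 6 each, adjusted p = 0.0416 in limma). Bdnf, the growth factor best known in this wave, had an amplitude of 0.04 ± 0.03 (adjusted p = 0.70) and was also picked after its value was seen. Of 11 other dual-specificity phosphatases only Dusp6 was called (0.17 ± 0.03 at ZT17.45, adjusted p = 0.00144). Of the machinery around them, 0 of 20 upstream kinases and factors, 0 of 7 partners and corepressors and 0 of 9 Homer and metabotropic glutamate receptor scaffold genes were called for the shared rhythm in limma, with 4, 0 and 1 at an unadjusted p under 0.05 (19.1% of all genes). By the adjusted p, which called 5.55% of all genes, 8 of 13 glucocorticoid-responsive genes and 15 of 19 core clock genes passed.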

How the data were processed

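RNA of 4 tissues was measured on Affymetrix Mouse Gene 2.0 ST arrays, 48 in all, each from a pool of 3 mice. The authors deposited log2 values; how they were background-corrected, summarised and normalized is not given in the sources used. Array medians lay between 5.84 and 6.07. Of 41345 rows, 23521 carry 1 symbol, 1814 several and 16010 none here, and no gene was named from a row with several. The row with the highest mean stood for each gene. Genes with a mean of at least 5.05, the 30th percentile, were tested (17274 of 22180).

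Limma 3.58.1 in R 4.3.3 (lmFit, eBayes, two-sided, Benjamini-Hochberg over all genes tested) fitted a cosine and sine of 24 h within each tissue and over all tissues, and contrasts of tissues and of dark minus light in a model of the 24 groups. It was tested on simulated data. A call is an adjusted p under 0.05. The difference of dark minus light between tissues, the steps between times and the fits without ZT11 were added after the values were seen. The 10 genes, and the lists of other genes, were chosen with earlier results of these data known. The named genes are the 10, the 10 genes nearest to their mean, the nearest gene to each, and at most 6 per list with the smallest p for the shared rhythm. Pearson correlations are of values centred on each tissue's mean and are descriptions.

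Per the labels, the replicate number marks the 24-h cycle and so pairs the arrays. Deviations from the group means correlated by 0.036 on average over 60 same-numbered pairs within a tissue, and by 0.036 over 36 pairs of different tissues taken at the same collection time. Alternatives were other scalings, filters, row choices and variance priors, the replicate block, collection time as a block, fewer arrays in the fit, other shapes of rhythm, and each array left out. Promoters are RefSeq windows on GRCm38.p6, read with Python 3.11.15.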

Additional observations from a re-analysis of the deposited data

How the results depend on the processing

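No result called in the main fit or in an alternative turned its direction. Where neither fit gave a call, directions were not compared. Over the 2040 values recomputed for the 10 genes with no array left out, 2002 kept their side of the threshold, 22 lost a call and 16 gained one. With 1 array left out at a time, 4804 of 4880 kept theirs, 63 lost a call and 13 gained one. The count of 2 genes with a 24-h rhythm in PFC was 1 without the filter, 1 with the replicate block and 0 when any difference between the 6 times was tested, and between 0 and 2 with 1 array left out. The 6 genes higher in the dark in PFC became 1 with the PFC arrays alone, and between 2 and 5 with 1 array left out. The 1 gene higher in the dark in STR became 3 with quantile normalization, with the filter at the 50th percentile, with a variance trend, with the replicate block and without ZT11. It became 0 with no filter and with the STR arrays alone, and lay between 0 and 3 with 1 array left out. The 1 gene lower at ZT3 than at ZT23 in PFC became 2 with the replicate block and 0 with any array of those times left out. With 1 array left out, the shared rhythm was called for 3 to 4 genes, the level of PFC minus STR for 7 to 9, that of STR minus HAB for 9 to 10, and the difference of ZT19 from the mean of ZT15 and ZT23 in HAB for 0 to 1, while the counts of the comparisons not named so far kept their value. Smaller moves with no array left out were 3 genes in place of 2 for the rhythm in PFC with a variance trend, 4 in place of 3 for the shared rhythm with the filter at the 50th percentile, a variance trend or the replicate block, and 5 in place of 6 for the dark in PFC without ZT11 and 4 with median centring, quantile normalization or no filter. PFC minus STR was called for 8 in place of 9 with median centring or collection time as a block and 7 with quantile normalization, which called PFC minus HAB for 10 in place of 9. The replicate block changed no call other than those given beside the results. The cause of these changes was not tested. Among the genes called over the whole table, centring on array medians moved the share higher in SN/VTA to 70.8% against PFC, 80.5% against STR and 80.3% against HAB, with 58.1%, 59.4% and 62.6% on the deposited scale. With 2 pools per time and tissue, and p-values near the threshold for most time-of-day calls, the counts of genes called moved with the setting. The direction of the called results did not turn.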
